A study of Homo sapiens with 4 samples.

Results

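The genes described here are SREBF1 and 7 genes of de novo lipogenesis, the pathway that turns citrate and acetate carbon into the fatty acid palmitate, in bladder cancer cells in which the desaturase gene SCD was knocked down. The 8 genes were listed by name and not by a cut on their values: SREBF1, MLXIPL, SLC25A1, ACLY, ACSS2, ACACA, ACACB and FASN. Earlier results of these data were known when they were listed. All 8 were found among the 32485 genes listed for either cell line, 8 among the 17752 genes of the SW780 table and 7 among the 30148 genes of the UMUC3 table. MLXIPL was therefore analysed in SW780 only, where it was matched by its Ensembl identifier.

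RNA sequencing was done on UMUC3 and SW780, established human bladder cancer cell lines. In each line, cells given a lentivirus to knock down SCD1 (labelled shSCD1, the protein of the gene SCD) were compared with shNT cells, which the labels list as WT in genotype. UMUC3 was grown in MEM and SW780 in DMEM, both with fetal bovine serum and antibiotics, so line and medium cannot be told apart. Each of the 4 groups held 1 library, and the number of cultures, clones or hairpins behind a library is not given in the sources used here.

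In cells, SLC25A1 carries citrate out of mitochondria and ACLY splits it into acetyl-CoA, while ACSS2 makes acetyl-CoA from acetate. The acetyl-CoA carboxylases ACACA and ACACB turn acetyl-CoA into malonyl-CoA, from which FASN builds palmitate; SCD then adds the double bond to saturated chains made from it. SREBF1 encodes SREBP-1, a membrane-bound transcription factor that is cut free by proteolysis and switches on most of these genes, and MLXIPL encodes ChREBP, which does so in response to sugar. Many tumours, bladder cancer among them, make fatty acids by this route.

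Promoter windows, from 250 bases before to 50 bases after a RefSeq start site (GRCh38.p14), were at hand for 7 of the 8 genes, 12 windows in all, ACACA having 3 and ACACB, ACLY and ACSS2 more than 1 each. FASN had none. They are shown because the reads of a gene were summed over all of its start sites, and because these genes share regulators. In the 5 windows printed here, each 5′ to 3′ along the gene, capitals mark any match, on either strand, to GGGCGG (a GC box, read by SP1) or CCAAT (read by NF-Y).
SREBF1, chr17:17836937-17837236, minus strand: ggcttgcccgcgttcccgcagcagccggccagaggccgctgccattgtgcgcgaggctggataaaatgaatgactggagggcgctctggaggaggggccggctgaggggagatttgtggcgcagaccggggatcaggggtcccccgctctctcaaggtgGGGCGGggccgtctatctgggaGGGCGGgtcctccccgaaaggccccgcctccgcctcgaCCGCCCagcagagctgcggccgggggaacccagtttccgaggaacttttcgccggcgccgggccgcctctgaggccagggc
ACACA window 1, chr17:37406787-37407086, minus strand: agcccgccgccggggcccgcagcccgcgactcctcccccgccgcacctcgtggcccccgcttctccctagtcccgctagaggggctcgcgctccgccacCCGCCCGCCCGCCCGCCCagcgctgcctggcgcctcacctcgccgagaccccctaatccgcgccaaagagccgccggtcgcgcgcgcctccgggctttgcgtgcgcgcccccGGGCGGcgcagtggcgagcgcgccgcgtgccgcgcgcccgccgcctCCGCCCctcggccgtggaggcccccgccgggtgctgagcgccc
ACACA window 3, chr17:37299718-37300017, minus strand: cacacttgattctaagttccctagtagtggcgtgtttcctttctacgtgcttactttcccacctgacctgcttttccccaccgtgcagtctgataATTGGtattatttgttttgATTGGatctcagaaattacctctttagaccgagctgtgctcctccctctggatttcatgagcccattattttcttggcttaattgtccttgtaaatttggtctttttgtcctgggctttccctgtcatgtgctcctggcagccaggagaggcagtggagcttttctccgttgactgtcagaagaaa
ACLY window 1, chr17:41918973-41919272, minus strand: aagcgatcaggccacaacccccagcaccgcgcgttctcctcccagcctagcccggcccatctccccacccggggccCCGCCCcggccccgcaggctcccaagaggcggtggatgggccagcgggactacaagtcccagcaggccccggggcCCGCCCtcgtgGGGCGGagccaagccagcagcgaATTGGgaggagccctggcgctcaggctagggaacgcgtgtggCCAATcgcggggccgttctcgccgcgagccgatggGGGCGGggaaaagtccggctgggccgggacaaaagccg
SLC25A1, chr22:19178687-19178986, minus strand: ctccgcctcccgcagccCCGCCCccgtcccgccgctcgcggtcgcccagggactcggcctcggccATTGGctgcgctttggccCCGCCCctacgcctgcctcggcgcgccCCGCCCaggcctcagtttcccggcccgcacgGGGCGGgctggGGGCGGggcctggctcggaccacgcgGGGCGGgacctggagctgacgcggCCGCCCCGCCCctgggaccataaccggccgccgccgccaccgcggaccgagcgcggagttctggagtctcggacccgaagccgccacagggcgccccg
A GC box was found in 10 of the 12 windows, against 45.0% of 35116 windows of the same length. All 7 genes had one in at least 1 window, for which no share over all genes was counted. The windows with a GC box were 55.3% to 82.3% G or C, and those without were 45.3% and 46%. Windows of like G or C content were not compared. The ACLY windows overlap, so matches that they share count in both. The SLC25A1 window held 8 matches, the most of any single window of the 12, and that of SREBF1 held 3, at 91, 69 and 31 bases before its start site. A CCAAT match was found in 7 of the 12 windows, against 34.6% of all windows. These belonged to 5 genes, for which no share over all genes was counted. The 2 ACACA windows differ in make-up: window 1 is 82.3% G or C with 6 GC boxes, and window 3 is 45.3% G or C with none and a pair of CCAAT matches. Matches to CACGTG (an E-box, in 7.26% of all windows) and to TCACNCCAC (the core of a sterol regulatory element, in 1.13%) were searched on both strands and occurred in 0 of the 12 windows. These are letter matches in short windows and say nothing of binding.

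The targeted gene checks the labels. SCD stood at 264 CPM in UMUC3 shNT and 59.6 CPM in UMUC3 shSCD1, and at 592 and 92.1 CPM in SW780, so that it was 4.44-fold lower (95% interval 4.22 to 4.67) and 6.43-fold lower (6.16 to 6.71) in the shSCD1 libraries. CPM is the reads of a gene divided by the total of its library and scaled up alike in all libraries. The libraries held between 22818368 and 34087871 reads over the listed genes. The files call the libraries of a line first and second, and the second was read as shSCD1 because each table is named for shSCD1 and gives second over first. Of 12 epithelial and urothelial markers, 9 reached 1 CPM in SW780 (summed level 12039 CPM in shNT and 10001 in shSCD1) and 5 did in UMUC3 (534 and 261 CPM), which had no value for CDH1, EPCAM and UPK3A. Of 10 markers of adipocytes and hepatocytes, cells known for lipogenesis, 4 were listed for UMUC3 and 6 for SW780. Of these, 0 reached 1 CPM in UMUC3, and PLIN4 and SERPINA1 did in SW780. Of 10 markers of fibroblasts, endothelium and blood, 3 reached 1 CPM in UMUC3 shNT and 1 in UMUC3 shSCD1. In SW780 4 and 3 did, shNT first. CD68, of that list, had 67.0 and 47.5 CPM in UMUC3 and 17.4 and 12.6 CPM in SW780. The part of these markers in the results was not tested. In bulk RNA, a gene used by fewer cells and less of its RNA per cell cannot be told apart.

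None of the 7 genes with at least 1 CPM differed 2-fold between shSCD1 and shNT in either line. The size rule was a log2 ratio, taken as log2((shSCD1 CPM + 1)/(shNT CPM + 1)), of at least 1 in either direction. In UMUC3 it was met by 2.47% of 14063 genes on the higher side and 2.18% on the lower side, and in SW780 by 1.48% and 1.06% of 12880 genes. With shares that small, a count of 0 among 7 genes is near the background. The median log2 ratio of the 7 was 0.07 in UMUC3 (all genes 0.04) and −0.12 in SW780 (all genes −0.01). With 1 library a group there is no replicate error, so no test was made within a line. The 95% intervals below are exact and cover counting error only. At this depth counting error is small: 35.9% of genes had an interval wholly above 1 and 29.6% wholly below it in UMUC3, and 28.0% and 29.8% in SW780. Among the 7 genes, 4 lay wholly above 1 and 0 below in UMUC3 (FASN, ACACA, ACACB, ACLY), and 0 above and 4 below in SW780 (SREBF1, FASN, ACACA, ACSS2).

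**Figure D1:**
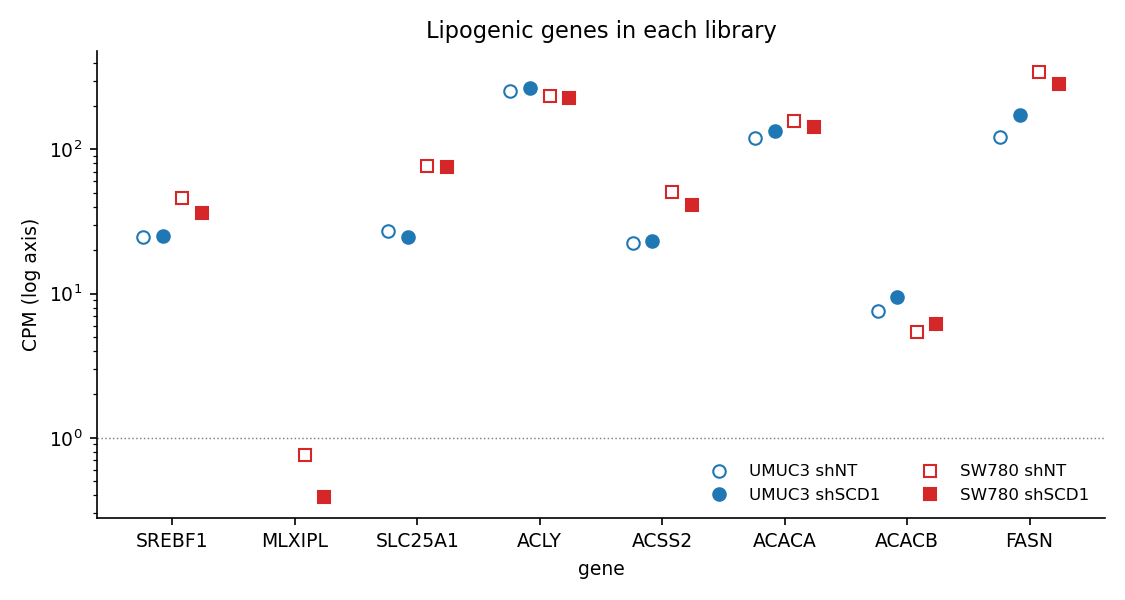
CPM (log axis) of the 8 lipogenic genes in each of the 4 libraries, 1 point per library, circles for UMUC3 and squares for SW780, open for shNT and filled for shSCD1. The dotted line is 1 CPM. MLXIPL lies below it in both SW780 libraries, and FASN lies at 123 and 174 CPM in UMUC3 and at 344 and 284 CPM in SW780.

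Of the transcription factors, SREBF1 was lower in SW780 shSCD1 and nearly level in UMUC3. It had 24.8 CPM in UMUC3 shNT and 25.1 CPM in UMUC3 shSCD1, from 567 and 818 reads. In SW780 it had 45.9 CPM in shNT and 36.0 CPM in shSCD1, from 1566 and 921 reads. Both SW780 libraries were thus above both UMUC3 libraries. The log2 ratio was 0.02 in UMUC3, where the fold was 1.01 (0.908 to 1.13), and its sign turned when ratios were centred on the median gene (−0.02) and in the authors' deposited table (−0.07). In SW780 SREBF1 was 1.27-fold lower in shSCD1 (1.17 to 1.38), a log2 ratio of −0.34 that was below the ratios of all but 9.69% of genes. The gene lies at chr17:17810399-17837002 on the minus strand (GRCh38), and 6.92% of its exonic bases overlap exons of RAI1 on the other strand, whose reads cannot be separated if strand was not used. SREBP-1a and SREBP-1c, the forms made from different start sites of SREBF1, are summed in these counts.

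SREBF2, the related factor best known for cholesterol synthesis, was the more abundant of the SREBP genes by reads in every library. It had 212 CPM in UMUC3 shNT and 216 CPM in UMUC3 shSCD1, and 114 and 85.8 CPM in SW780, where it was 1.32-fold lower in shSCD1 (1.25 to 1.39). SREBF1 made up 10.5% of the reads of the pair in UMUC3 shNT (exact 95% interval 9.70 to 11.4%) and 10.4% in shSCD1 (9.76 to 11.1%). In SW780 the shares were 28.8% (27.6 to 30.0%) and 29.6% (28.0 to 31.2%). The share of SREBF1 thus differed between the lines by more than counting error, and within each line the intervals of the shSCD1 and shNT libraries overlapped. Per kilobase of exon (all GENCODE exons of a gene merged), SREBF2 exceeded SREBF1 by 9.05 and 9.13 times in UMUC3 and by 2.63 and 2.53 times in SW780.

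MLXIPL was close to the detection limit. It had 0.763 CPM (26 reads) in SW780 shNT and 0.391 CPM (10 reads) in SW780 shSCD1. The fold was 0.513 with an interval of 0.221 to 1.10, so a difference was not detectable at this depth. The gene was below 1 CPM in both libraries and was left out of the counts above. The authors' deposited table gave it a log2 fold change of −0.88 and a GFOLD value, which is shrunk towards 0 by counting error, of 0.

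Among the genes that supply acetyl-CoA, ACLY was high and the most even. It had 256 CPM in UMUC3 shNT, 268 CPM in UMUC3 shSCD1, 234 CPM in SW780 shNT and 228 CPM in SW780 shSCD1. The 4 libraries thus lay within a narrow band, with the UMUC3 libraries above those of SW780. ACLY was 1.05-fold higher in UMUC3 shSCD1 (1.01 to 1.08), a log2 ratio of 0.07 that was −0.01 in the authors' deposited table. In SW780 the log2 ratio was −0.04 and the interval of the fold, 0.940 to 1.01, included 1. Per kilobase of exon ACLY was the highest of the 8 genes in all 4 libraries, at 49.0, 51.4, 44.9 and 43.7 CPM per kilobase. AC125257.2, on the other strand, overlaps 2.99% of its exonic bases.

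ACSS2, the acetate-using enzyme, was lower in SW780 shSCD1, as SREBF1 was. It had 22.5 CPM in UMUC3 shNT and 23.1 CPM in UMUC3 shSCD1, and 50.6 CPM in SW780 shNT and 41.4 CPM in SW780 shSCD1. In UMUC3 the interval included 1 (fold 1.03, 0.918 to 1.15; log2 ratio 0.04, or −0.04 in the authors' deposited table). In SW780 it was 1.22-fold lower in shSCD1 (1.13 to 1.32), a log2 ratio of −0.28. ACSS2 made up 8.08% (7.42 to 8.77%) of the reads of ACSS2 and ACLY in UMUC3 shNT and 7.94% (7.40 to 8.50%) in shSCD1. In SW780 it made up 17.7% (17.0 to 18.5%) in shNT and 15.4% (14.5 to 16.2%) in shSCD1, and those intervals did not overlap.

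SLC25A1, the citrate carrier, had intervals of the fold that included 1 in both lines. It had 27.2 CPM in UMUC3 shNT and 24.9 CPM in UMUC3 shSCD1, a log2 ratio of −0.12 (1.09-fold lower, 0.982 to 1.21). The authors' deposited table put it lower, with a log2 fold change of −0.21 and a GFOLD value of −0.03. In SW780 it had 77.1 and 75.7 CPM, a log2 ratio of −0.03 (1.02-fold lower, 0.961 to 1.08). It was the only gene of the 7 whose ratio was lower in UMUC3 than in SW780. Per kilobase of exon it reached 36.8 CPM in SW780 shNT, the same as FASN there.

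The carboxylases differed in level. ACACA, the cytosolic enzyme of lipogenic cells, had 119 CPM in UMUC3 shNT, 134 CPM in UMUC3 shSCD1, 156 CPM in SW780 shNT and 144 CPM in SW780 shSCD1. It was 1.13-fold higher in UMUC3 shSCD1 (1.07 to 1.18) and 1.09-fold lower in SW780 shSCD1 (1.04 to 1.13), log2 ratios of 0.17 and −0.12. In UMUC3 the authors' deposited table gave a log2 fold change of 0.09, smaller than the ratio here, and a GFOLD value of 0.01. Such a gap was not particular to ACACA. For each of the 7 genes the authors' UMUC3 value was below the ratio here, and the cause was not tested. The ACACA ratios are small beside the spread of all genes. The middle 90% of genes ran from −0.68 to 0.79 in UMUC3 and from −0.51 to 0.59 in SW780. ACACB, the form at mitochondria that is known for restraining fatty acid oxidation, had 7.63 and 9.43 CPM in UMUC3 and 5.43 and 6.18 CPM in SW780, shNT first.

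Of the 11152 genes measured in both lines, 2898 had a ratio above 0 in both. ACACB was the only one of the 7 genes to do so, with 0.27 in UMUC3 and 0.16 in SW780. Its fold was 1.24 in UMUC3 (1.02 to 1.5) and 1.14 in SW780 (0.916 to 1.42), where the interval included 1. ACACB held 6.02% (5.18 to 6.95%) of carboxylase reads in UMUC3 shNT and 6.57% (5.88 to 7.32%) in shSCD1. In SW780 it held 3.35% (2.90 to 3.86%) and 4.12% (3.51 to 4.80%). Per kilobase of exon ACACB was at most 0.650 CPM in all 4 libraries.

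FASN, the synthase that makes palmitate, had the largest ratio of the 7 genes in UMUC3 and went the other way in SW780. It had 123 CPM in UMUC3 shNT and 174 CPM in UMUC3 shSCD1, from 2797 and 5668 reads. In SW780 it had 344 CPM in shNT and 284 CPM in shSCD1, from 11734 and 7252 reads. Both SW780 libraries stayed above both UMUC3 libraries. FASN was 1.42-fold higher in UMUC3 shSCD1 (1.36 to 1.49), a log2 ratio of 0.50 that was above those of 86.9% of genes. It was 1.21-fold lower in SW780 shSCD1 (1.18 to 1.25), a log2 ratio of −0.28 that was above those of 13.4% of genes. The authors' deposited log2 fold change was 0.43 in UMUC3, outside the counting interval, and −0.27 in SW780. Their GFOLD values were 0.35 in UMUC3 and −0.22 in SW780. FASN lies at chr17:82078333-82098332 on the minus strand (GRCh38), with no exonic base shared with another gene.

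**Figure D2:**
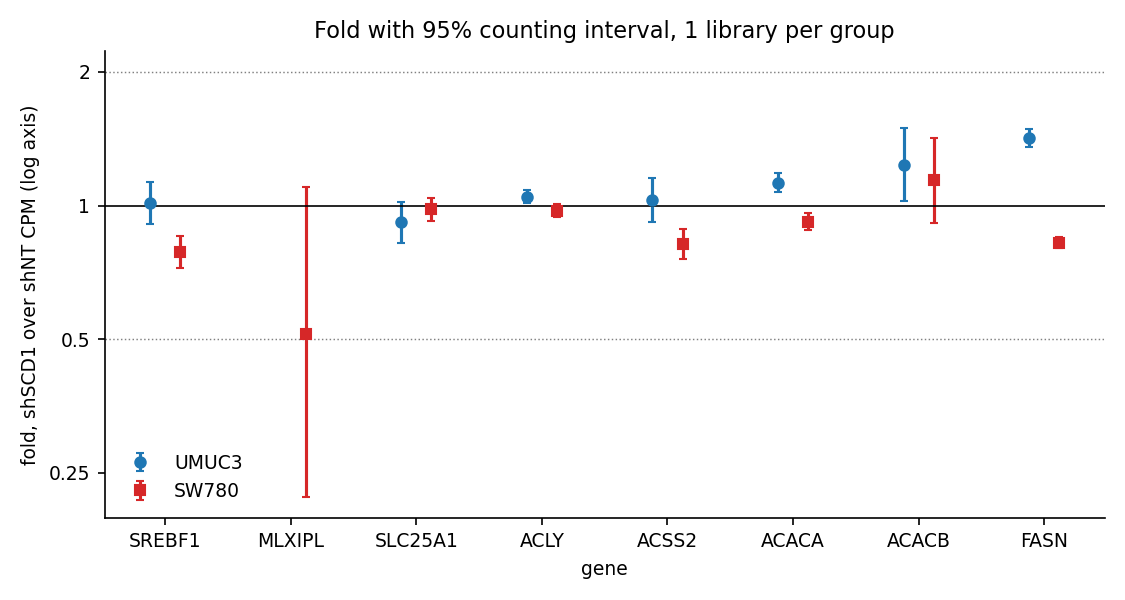
Fold of shSCD1 over shNT CPM (log axis) for each lipogenic gene, circles for UMUC3 and squares for SW780, with bars for the exact 95% counting interval and dotted lines at 0.5 and 2. FASN and ACACA lie above 1 in UMUC3 and below 1 in SW780 with intervals that exclude 1, and the MLXIPL interval runs from 0.221 to 1.10.

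SCD works on the product of FASN, and the balance of their reads differed between shNT and shSCD1 in both lines. SCD made up 68.3% of the reads of the pair in UMUC3 shNT (67.3 to 69.3%) and 25.5% in UMUC3 shSCD1 (24.5 to 26.5%). In SW780 the shares were 63.2% (62.7 to 63.8%) and 24.5% (23.6 to 25.4%). Both shSCD1 libraries were far below both shNT libraries, and SCD is the gene the knockdown was aimed at. The other pairs differed by a few percentage points at most between shNT and shSCD1.

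**Figure D3:**
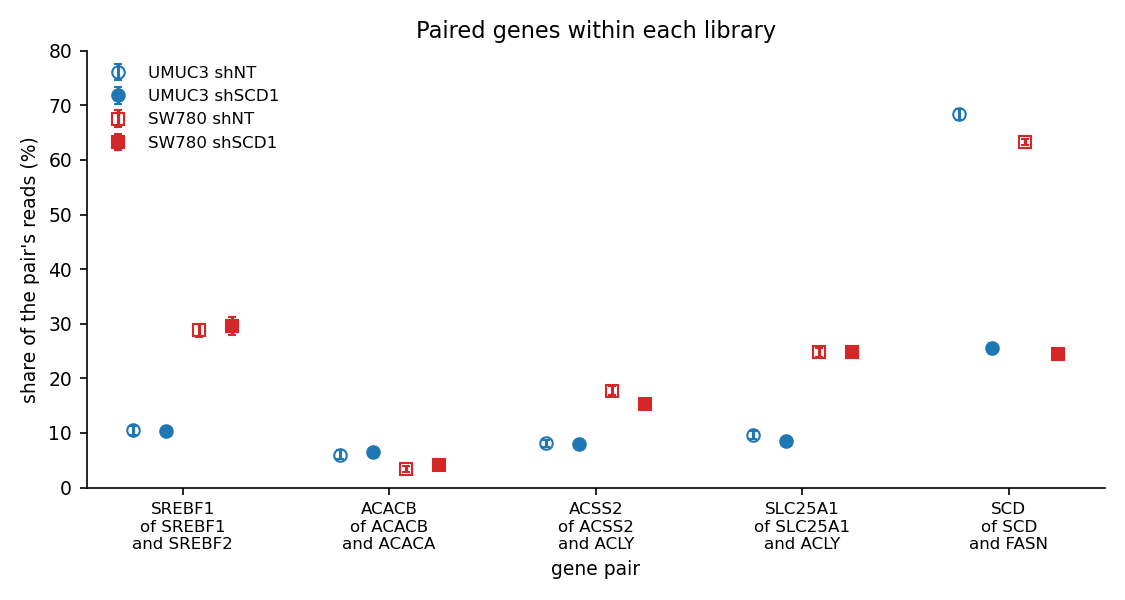
Share of reads (%) held by the first gene of 5 pairs in each library, circles for UMUC3 and squares for SW780, open for shNT and filled for shSCD1, with exact 95% binomial intervals. The share of SCD in SCD and FASN lies at 68.3% and 63.2% in the shNT libraries and at 25.5% and 24.5% in the shSCD1 libraries, while that of SREBF1 separates the lines.

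Summed over the 8 genes (MLXIPL in SW780 only), lipogenic reads were 0.0580% of all reads in UMUC3 shNT (0.0570 to 0.0590%) and 0.0659% in UMUC3 shSCD1 (0.0650 to 0.0668%). In SW780 they were 0.0915% (0.0905 to 0.0925%) in shNT and 0.0815% (0.0804 to 0.0827%) in shSCD1. The share was thus higher in shSCD1 in UMUC3 and lower in SW780, by more than counting error. FASN made up 21.1% of these reads in UMUC3 shNT and 26.4% in shSCD1, and 37.6% and 34.8% in SW780. ACLY led in UMUC3, with 44.1% and 40.7%, and FASN led in SW780.

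FASN and ACACA went opposite ways in the lines, with intervals of the fold that excluded 1 in both. Among all genes, 35.9% had an interval wholly above 1 in UMUC3, and 29.8% had one wholly below 1 in SW780. Genes with both were not counted. By sign alone, 5 of the 7 genes had a ratio above 0 in UMUC3 and below 0 in SW780. They were SREBF1, FASN, ACACA, ACLY and ACSS2. Of the 11152 genes measured in both lines, 26.0% had these signs. The opposite signs were found in 0 of the 7 genes and in 2507 of the 11152. The count of 5 became 4 when ratios were centred on the median gene. It was 2 with the authors' deposited log2 fold changes, which were below 0 in UMUC3 for SREBF1, ACLY and ACSS2. The ratio in SW780 minus that in UMUC3 was −0.78 for FASN, lower than in all but 5.58% of genes. It was −0.36 for SREBF1, −0.32 for ACSS2, −0.29 for ACACA, −0.11 for ACACB, −0.11 for ACLY and 0.09 for SLC25A1. A lower difference than that of ACACA was found for 25.6% of genes. The median over all genes was −0.02, and the middle 90% ran from −0.81 to 0.85, so each of the 7 lay inside that range. As a ratio of folds, SW780 over UMUC3, FASN gave 0.580 (counting interval 0.550 to 0.613) and SREBF1 0.776 (0.676 to 0.889). With 1 library a group, the difference between the lines was not tested against the spread between cultures.

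**Figure D4:**
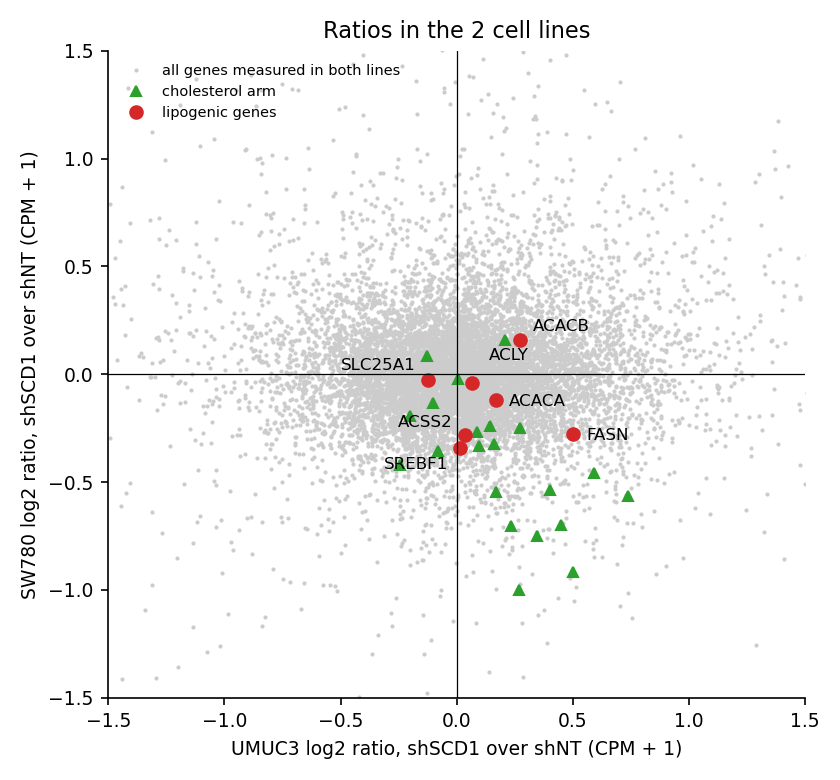
Log2 ratio of shSCD1 over shNT (CPM + 1) in UMUC3 on the x axis and in SW780 on the y axis, 1 point per gene, with all genes measured in both lines in grey, cholesterol genes as triangles and the 7 lipogenic genes as labelled circles; 161 genes lie outside the axes. FASN lies farthest to the lower right of the lipogenic genes, at 0.50 and −0.28.

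A change shared by both lines was asked for in 1 model over the 4 libraries with cell line as a block, in which the lines are the only replication. By edgeR's quasi-likelihood test with Benjamini-Hochberg adjustment, 0 of 13554 genes were called at an adjusted p below 0.05, and 418 had an unadjusted p below 0.05. DESeq2 called 27 genes. The 7 lipogenic genes were not among the calls of either tool, and their smallest adjusted p was 0.986 in edgeR and 1.00 in DESeq2. The model's log2 fold changes ran from −0.18 for SREBF1 to 0.24 for ACACB, with FASN at 0.11 (edgeR adjusted p 0.986) since its opposite values in the lines were averaged. SCD itself had −2.43, with an adjusted p of 0.722 in edgeR and 1.22e-23 in DESeq2.

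In the shNT libraries, 3 of the 7 genes were at least 2-fold higher in SW780 than in UMUC3, where 27.5% of 12817 genes were higher and 14.8% lower by that rule and the median log2 ratio was 0.26. The tables were made separately for each line, so these levels are a description. In order of fold, SLC25A1 was 2.84-fold higher (2.60 to 3.10), FASN 2.81-fold (2.69 to 2.93), ACSS2 2.25-fold (2.04 to 2.49), SREBF1 1.85-fold (1.68 to 2.04) and ACACA 1.31-fold (1.25 to 1.38). The intervals of FASN and SLC25A1 overlapped, as did those of ACSS2 and SREBF1. ACLY was 1.09-fold (1.05 to 1.13) and ACACB 1.41-fold (1.14 to 1.74) higher in UMUC3. With TMM factors over the genes in both tables, the median moved to 0.04 and ACSS2 no longer met the rule, its log2 ratio going from 1.14 to 0.91. These levels and the ratios above share the shNT libraries.

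By order of CPM per kilobase of exon, UMUC3 shNT ran ACLY (49.0), FASN (13.1), SLC25A1 (13.0), ACACA (9.15), ACSS2 (4.17), SREBF1 (3.09) and ACACB (0.526). SW780 shNT ran ACLY (44.9), SLC25A1 (36.8), FASN (36.8), ACACA (12.0), ACSS2 (9.39), SREBF1 (5.72), ACACB (0.374) and MLXIPL (0.158). FASN and SLC25A1 were next to each other and level in both. In shSCD1 the order of these was FASN (18.6) above SLC25A1 (11.9) in UMUC3, and SLC25A1 (36.1) above FASN (30.3) in SW780.

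Around these genes, 7 lists of related genes were read by the same rule, and 2 genes stand in more than 1 list. Of all genes, 2.47% met the rule on the higher side and 2.18% on the lower side in UMUC3. In SW780 those shares were 1.48% and 1.06%. In SREBP processing, the machinery that holds SREBP at the endoplasmic reticulum and cuts it, 0 of 13 genes met the size rule in either line, with median log2 ratios of −0.09 in UMUC3 and −0.18 in SW780. Its most abundant genes were MBTPS1, the first protease (166 and 144 CPM in UMUC3, 217 and 218 CPM in SW780), SREBF2, and PGRMC1, a membrane protein of that machinery. PGRMC1 had 144 and 87.9 CPM in UMUC3, 1.64-fold lower in shSCD1 (1.56 to 1.72), and 167 and 160 CPM in SW780.

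Of 13 transcription partners, 0 met the rule in UMUC3 and 1 did in SW780. It was PPARGC1B, a coactivator of SREBP-1, with 22.5 CPM in SW780 shNT and 10.0 CPM in shSCD1, 2.24-fold lower (1.94 to 2.59), beside 22.4 and 29.4 CPM in UMUC3. SP1, a factor known to bind GC boxes, had 135 and 145 CPM in UMUC3 and 155 and 155 CPM in SW780. RXRA, the partner of the liver X receptors, had 38.5 and 34.8 CPM in UMUC3 and 206 and 171 CPM in SW780. USF2, an E-box factor, had 45.2 and 47.8 CPM in UMUC3 and 93.0 and 139 CPM in SW780, 1.49-fold higher in shSCD1 (1.42 to 1.56).

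Among 16 genes downstream of palmitate, SCD alone met the rule, in both lines. Without it, 8 of 15 ratios were above 0 in UMUC3 (median 0.09) and 6 of 15 in SW780 (median −0.07). FADS1, a desaturase of polyunsaturated chains, had 148 CPM in UMUC3 shNT and 218 CPM in shSCD1, 1.47-fold higher (1.42 to 1.54), and 220 and 149 CPM in SW780, 1.48-fold lower (1.42 to 1.54). It thus differed in the same directions as FASN, as did 7 of these 15 genes and 26.0% of all genes measured in both lines. HACD3, a dehydratase of chain elongation, had 296 and 345 CPM in UMUC3 and 239 and 225 CPM in SW780.

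Of 20 genes that supply citrate, acetyl-CoA or NADPH, IDH1 and PC met the rule. IDH1, the cytosolic NADPH-making isocitrate dehydrogenase, had 22.3 CPM in UMUC3 shNT and 67.1 CPM in shSCD1, 3.01-fold higher (2.73 to 3.32). In SW780 it had 320 CPM in shNT and 68.5 CPM in shSCD1, 4.67-fold lower (4.44 to 4.91). It therefore had the signs of FASN in each line with larger ratios, 1.55 and −2.21. Those signs were shared by 6 of the 20 genes and by 26.0% of all genes measured in both lines. PC, the carboxylase that refills oxaloacetate, had 32.3 and 12.6 CPM in UMUC3, 2.56-fold lower in shSCD1 (2.27 to 2.90), and 13.1 and 11.5 CPM in SW780. CS, citrate synthase, had 318 and 323 CPM in UMUC3 and 272 and 254 CPM in SW780. GOT2, the mitochondrial aspartate transaminase, had 220 and 220 CPM in UMUC3 and 346 and 345 CPM in SW780.

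In the list of genes tied to the control of the carboxylases and FASN, 0 of 16 measured met the rule in UMUC3 and 0 of 17 in SW780. PRKAA1, a catalytic subunit of the AMP-activated kinase that phosphorylates the carboxylases, had 160 and 177 CPM in UMUC3 and 150 and 124 CPM in SW780. AASDHPPT, which attaches the prosthetic arm of FASN, had 114 and 128 CPM in UMUC3 and 78.6 and 80.3 CPM in SW780. BRCA1, whose protein can bind phosphorylated ACACA, had 75.7 and 113 CPM in UMUC3, 1.49-fold higher in shSCD1 (1.41 to 1.58), and 99.3 and 98.6 CPM in SW780.

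Upstream of lipogenesis, 2 of 18 genes of nutrient and growth signalling met the rule in UMUC3, both lower, and 0 in SW780. SLC2A1, the glucose transporter GLUT1, had 117 and 49.6 CPM in UMUC3, 2.37-fold lower in shSCD1 (2.22 to 2.52), and 159 and 205 CPM in SW780. CREBRF, a regulator of CREB3 proteins, had 69.0 and 32.8 CPM in UMUC3, 2.10-fold lower (1.94 to 2.27), and 21.6 and 19.8 CPM in SW780. The kinase genes AKT1 and AKT2 had 123 and 152 CPM and 97.2 and 125 CPM in UMUC3, and 168 and 232 CPM and 268 and 265 CPM in SW780.

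The cholesterol arm, the genes best known as SREBP-2 targets, had medians on the same sides of 0 as the lipogenic genes and farther from it. In UMUC3 the lipogenic median of 0.07 was close to that of all genes, 0.04. In UMUC3 16 of 21 ratios were above 0 (54.3% of all genes), with a median of 0.17 and 0 past the rule. In SW780 19 of 21 were below 0 (51.5% of all genes), with a median of −0.36 and 1 past the rule. In 15 of the 21 the ratio was above 0 in UMUC3 and below 0 in SW780, as in 26.0% of the 11152 genes measured in both lines. With the authors' fold changes that count was 14, while that of the lipogenic genes went from 5 to 2. The gene past the rule was MSMO1, a sterol oxidase, with 79.9 and 39.4 CPM in SW780, 2.03-fold lower (1.89 to 2.18), and 112 and 135 CPM in UMUC3, and it missed the rule once ratios were centred on the median gene. CYP51A1, the lanosterol demethylase, had 181 and 212 CPM in UMUC3 and 151 and 92.1 CPM in SW780. FDFT1, squalene synthase, had 129 and 144 CPM in UMUC3 and 467 and 373 CPM in SW780.

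**Figure D5:**
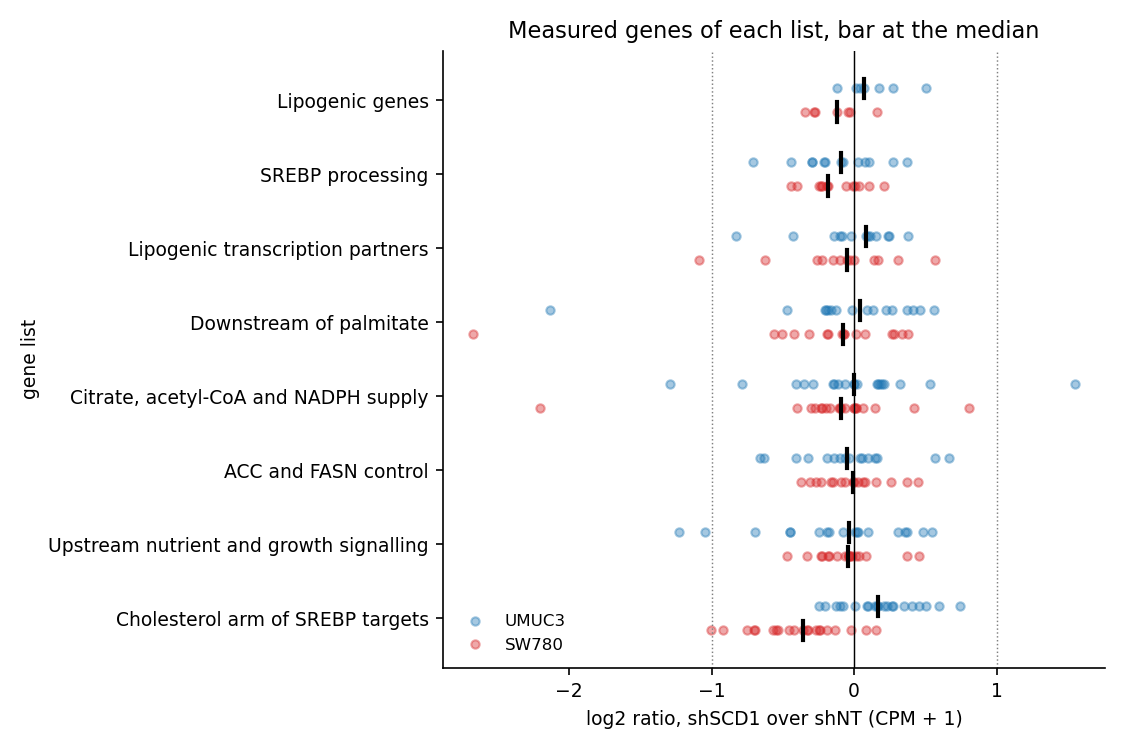
Log2 ratio of shSCD1 over shNT (CPM + 1) for every measured gene of the lipogenic genes and the 7 related lists, UMUC3 above SW780 in each pair of strips, with black bars at the medians and dotted lines at −1 and 1. The lipogenic medians are 0.07 and −0.12, those of the cholesterol arm are 0.17 and −0.36, and SCD and IDH1 are the points farthest from 0.

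The genes whose levels over the 4 libraries were most like those of SREBF1, by Euclidean distance of centred log2 levels among 9137 genes with at least 5 CPM in each library, were MDM4, TAF5L and SNX13, at distances of 0.02, 0.04 and 0.06. MDM4 had 23.7, 24.2, 43.4 and 34.8 CPM, in the order UMUC3 shNT, UMUC3 shSCD1, SW780 shNT and SW780 shSCD1. Those most like FASN were ELAPOR2, GPD2 and TNFRSF10D, at 0.07, 0.08 and 0.09. GPD2, the mitochondrial glycerol-3-phosphate dehydrogenase, had 49.9, 72.1, 135 and 119 CPM in that order. With 4 libraries, many genes share a pattern, and the ranks are a description.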

How the data were processed

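Per the labels' protocols, UMUC3 and SW780 RNA went into TruSeq libraries and was read on an Illumina NovaSeq. The submitters' processing notes name hg38. Not given in the sources used here are the aligner, counter, annotation and use of strand. The authors deposited 1 table per line. Per the file headers it holds 2 RPKM columns, a log2 fold change and a GFOLD value at a setting of 0.01. The deposited signal in these columns is a read count scaled to an equal total, with no gene length in it: 100% of low values (up to 20 reads) and at least 99.9% of all values above 0 were whole multiples of a fixed step, to within 0.1 reads. Whole reads were recovered by it and turned into CPM. The file columns call the libraries first and second.

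Log2 ratios were taken of CPM plus 1 where 1 of the libraries reached 1 CPM, and a size of at least 1 was the size rule. Intervals of folds were computed from the exact (Clopper-Pearson) 95% interval of shSCD1 reads among a gene's reads in both libraries. They cover counting error only, and the labels name no molecular identifiers. The count model used edgeR 4.0.16 on genes kept by filterByExpr, with DESeq2 1.42.0 as an alternative (R 4.3.3), and Benjamini-Hochberg adjustment. The lines are its only replication. Its p-values therefore set a shared change against the difference in response between the lines, and not against a spread between cultures. Other steps used Python 3.11.15 and SciPy 1.17.1. The steps were tested on simulated data. Gene positions and exonic lengths came from GENCODE 29 and promoter sequences from RefSeq (GRCh38.p14).

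The 8 genes, the 7 lists and the tests were chosen with earlier results of these data known. Named genes were the 8, SCD, the 3 most abundant genes of each list, every list gene past the size rule, and the 3 genes nearest in pattern to SREBF1 and to FASN; some genes taken by this rule are not reported here. Alternatives were another pseudocount, filter, scaling or rule of size, and the authors' fold changes. Columns were used in full for the 4 samples.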

Additional observations from a re-analysis of the deposited data

Results flagged for a closer look

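FASN and ACACA went opposite ways in the lines with counting intervals that excluded 1 in both. Among all genes, 35.9% had an interval wholly above 1 in UMUC3 and 29.8% had one wholly below 1 in SW780. Genes with both were left uncounted, so no share stands beside these 2 genes. The log2 ratio in SW780 minus that in UMUC3 was −0.78 for FASN, which was 1.42-fold higher in UMUC3 shSCD1 and 1.21-fold lower in SW780 shSCD1. It was −0.29 for ACACA, which was 1.13-fold higher and 1.09-fold lower, and 25.6% of genes measured in both lines had a lower difference. The authors' deposited table gave ACACA in UMUC3 a log2 fold change of 0.09, below the ratio of 0.17 here. Each line had 1 library per group, so the difference between the lines was not tested. In both lines the second library was read as shSCD1 from the name of the table, and SCD was lower in it.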

How the results depend on the processing

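The count of lipogenic genes past the size rule was 0 in both lines under every alternative run: pseudocounts of 0.1 and 5, TMM factors, centring on the median gene, no filter, a filter of 5 CPM, a 1.5-fold rule and the authors' log2 fold changes. Of the single ratios of the 8 genes, 3 of 15 changed sign with the authors' fold changes and 1 of 15 when centred, all in UMUC3 and all small, and 0 of 15 with TMM or another pseudocount. The count of lipogenic genes above 0 in UMUC3 and below 0 in SW780 went from 5 to 4 when centred. It went to 2 with the authors' fold changes. Alternatives for this count were chosen after seeing the data. The cholesterol genes past the rule in SW780 went from 1 to 0 when ratios were centred on the median. Genes called over both lines went from 0 with edgeR to 27 with DESeq2 and to 1 with edgeR and no filter beyond 1 read; the cause was not tested. Over the genes in both tables, the share of reads of the 8 genes was 0.0597% and 0.0680% in UMUC3 and 0.0931% and 0.0828% in SW780, shNT first, since fewer genes enter the totals. With 1 library per group no replicate could be left out. The model over both lines already pairs shNT and shSCD1 by cell line, and the labels give no replicate numbers to pair by. Depth limits MLXIPL, at 26 and 10 reads.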
